A study of Mus musculus with 10 samples.

Results

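The colony-stimulating factor receptors are 5 mouse genes, Csf3r, Csf1r, Csf2ra, Csf2rb and Csf2rb2, taken by symbol from the 29893 genes with a measured transcript. All 5 were detected in every one of 10 RNA-seq libraries and all passed the filter on low counts. The libraries came from myeloid cells that had been sorted by flow cytometry from the lungs of NOD/scid mice, a strain without mature T and B cells, whose tumours had reached end point. CCR2+ monocytes were sequenced from 3 samples of mice with HCl-002 tumours (TN2, low metastatic) and 2 of mice with HCl-001 tumours (TN1, highly metastatic). Neutrophils were sequenced from the same numbers, 3 TN2 and 2 TN1. Every mouse carried a tumour, and no tumour-free lungs were analysed here. Each sample bears a tag (TN2: tag_367, tag_706, tag_1341; TN1: tag_191, tag_482). Every tag occurs once per cell type. The labels do not say whether a tag is an animal, so the spread behind each p-value is that of these samples and may be technical.

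Colony-stimulating factors are the cytokines that drive bone marrow progenitors into the granulocyte and monocyte lineages and keep the mature cells alive. Csf3r encodes the receptor for granulocyte colony-stimulating factor, which acts as a homodimer, signals through Janus kinases and Stat3, and drives the formation and release of neutrophils. Csf1r encodes a receptor tyrosine kinase for macrophage colony-stimulating factor and the cytokine of the Il34 gene, on which monocytes and macrophages depend. Csf2ra encodes the ligand-binding alpha chain of the granulocyte-macrophage receptor, which signals only with a beta chain. Csf2rb encodes the common beta chain, shared with the receptors for the cytokines of the Il3 and Il5 genes, and Csf2rb2 a second beta chain of the mouse that pairs with the alpha chain of the Il3 receptor.

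In GRCm38 coordinates, Csf3r lies on chromosome 4 (126024550 to 126044440, plus strand) and Csf2ra on chromosome 19 (61223957 to 61228429, minus strand). The beta chain genes are neighbours on chromosome 15, Csf2rb at 78325752 to 78353847 on the plus strand and Csf2rb2 at 78282507 to 78305721 on the minus strand, with 20268 bases between them. Both can compete for the same reads. Their coding sequences aligned with 95.4% identity (2504 of 2626 aligned bases), the longest identical run was 242 bases, and 28.9% of the 31-base words of the Csf2rb transcript also occurred in the Csf2rb2 transcript. These sequences are from GENCODE M21, where the Csf2rb2 transcript has 4740 bases, against 4612 bases in the measured one. A stretch of exon 14 is shown because no read inside it can tell the genes apart. It reads the same in Csf2rb (chr15:78348577-78348696) and in Csf2rb2 (chr15:78284752-78284871, minus strand).
Csf2rb and Csf2rb2, exon 14: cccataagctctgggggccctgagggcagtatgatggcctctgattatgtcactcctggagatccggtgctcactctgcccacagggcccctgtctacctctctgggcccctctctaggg
The stretch of 120 coding bases with the most differences lies in exon 4 and is shown because its 16 differing bases, in capitals, separate the genes (Csf2rb, chr15:78338867-78338986, plus strand; Csf2rb2, chr15:78294345-78294464, minus strand).
Csf2rb, exon 4: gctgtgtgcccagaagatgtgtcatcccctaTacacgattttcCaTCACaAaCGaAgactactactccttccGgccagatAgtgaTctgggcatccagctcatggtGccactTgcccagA
Csf2rb2, exon 4: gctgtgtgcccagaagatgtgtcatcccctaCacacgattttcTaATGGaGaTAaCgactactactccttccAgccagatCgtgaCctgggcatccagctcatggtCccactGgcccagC
The split of reads between the 2 beta chains therefore rests on the part of the transcripts that differs, and values of Csf2rb2 carry that uncertainty.

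Libraries held 7239218 to 11311370 estimated counts. Library TN1 tag_482 had the fewest genes at 5 counts or more in both cell types (9732 in monocytes, 8851 in neutrophils) and the most mitochondrial transcript (19.9% of TPM in monocytes, 3.0% in neutrophils). The labels' cell types were checked with 10 marker genes each. Neutrophil markers (S100a8, S100a9, Ly6g and others) summed to 86.6 to 1318 CPM in monocytes and 45408 to 69933 CPM in neutrophils. Monocyte markers (Lyz2, Ccr2, on which the cells were sorted, Ly6c2 and others) summed to 13207 to 38603 CPM in monocytes and 4236 to 15399 CPM in neutrophils. No marker of either list was at 0 in either cell type. Monocyte library TN2 tag_706 stood apart, with the lowest monocyte marker sum and the highest sums of its cell type for neutrophil (1318 CPM), endothelial (1251 CPM), stromal (1088 CPM) and epithelial (390.1 CPM) markers. Macrophages also express Csf1r. Alveolar macrophage markers summed to 79.9 to 9253 CPM in monocytes, highest in TN2 tag_1341, and 259 to 2038 CPM in neutrophils. Most of that sum was Chil3, at a mean of 3084 CPM in monocytes and 989 CPM in neutrophils. The rest of that list averaged 3.47 (Marco) to 18.7 CPM (Ear2) in monocytes. Of these, Siglecf was higher in neutrophils, at 6.69 CPM in monocytes and 53.7 CPM in neutrophils. Interstitial macrophage markers summed to 287 to 1064 CPM in monocytes, highest in TN2 tag_706, and 24.8 to 98.3 CPM in neutrophils. Markers of eosinophils, basophils and mast cells, which carry the common beta chain, summed to at most 3.09 CPM in monocytes, with 4 of 6 at 0, and 1.52 CPM in neutrophils, with 5 of 6 at 0. The part of these cells in the receptor levels was not tested.

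Levels are given as TPM (transcript abundance corrected for transcript length and scaled to the library), which allows comparison between genes. Differences between groups are log2 fold changes of the counts, tested with edgeR and adjusted by the Benjamini-Hochberg method over all 13384 genes tested. The scales place the cell types differently. For all 5 receptors the ratio of monocytes to neutrophils was 1.70 to 1.78 times higher in TPM than in CPM (read counts scaled to the TMM-normalized library size). The median gene was 0.46 higher in monocytes by edgeR and 0.62 by limma-trend on log2(TPM + 1). A share within a library cancels the scaling between libraries, but its value still differs between TPM and counts, because TPM corrects for length.

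The cell types differed in which receptor dominated. In monocytes Csf1r made up 43.0% ± 5.78 of the summed TPM of the 5 genes, Csf2rb 26.8% ± 4.25, Csf2ra 18.2% ± 3.73, Csf3r 8.43% ± 5.81 and Csf2rb2 3.51% ± 0.89 (SD, n = 5). In neutrophils Csf3r alone made up 78.4% ± 2.04, Csf2rb 10.2% ± 1.84, Csf1r 5.37% ± 0.74, Csf2ra 5.29% ± 0.68 and Csf2rb2 0.715% ± 0.197 (SD, n = 5). The summed level was 1182 ± 218 TPM in monocytes and 3213.5 ± 228 TPM in neutrophils (SD, n = 5 each). In bulk RNA, fewer cells with a transcript and less transcript per cell cannot be told apart.

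**Figure D1:**
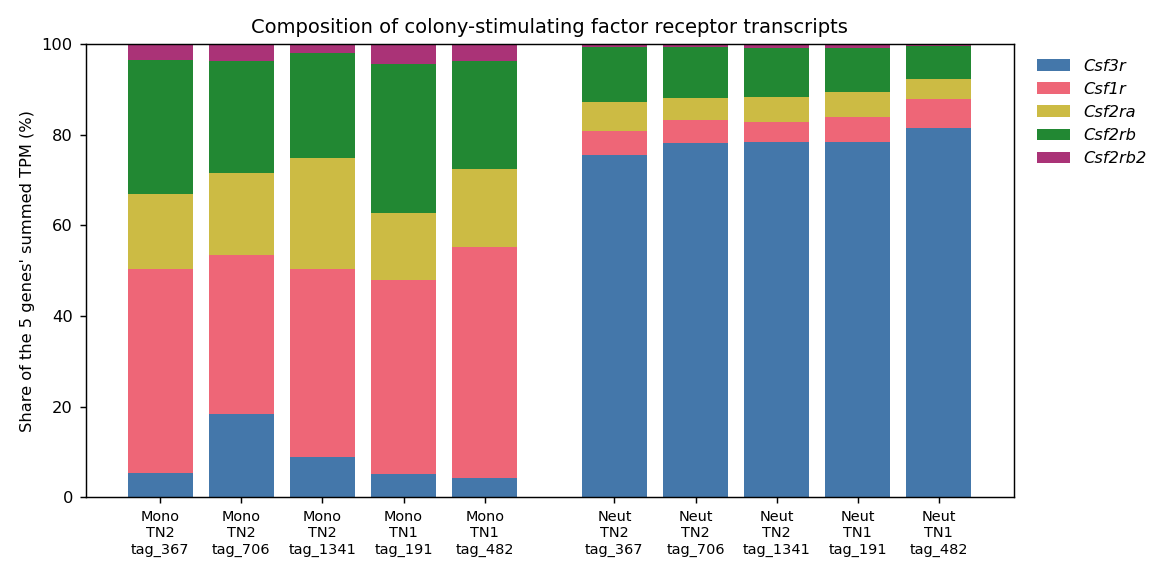
Share of each receptor in the summed TPM of the 5 genes (vertical axis, percent) in each library, monocytes left of neutrophils and TN2 left of TN1. Csf1r is the largest block in all 5 monocyte libraries and Csf3r in all 5 neutrophil libraries, and the Csf3r block of monocytes is largest in TN2 tag_706 (18.3%).

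Csf1r was the highest and Csf2rb2 the lowest receptor in each of the 5 monocyte libraries. Between them, neighbours overlapped: Csf2rb spanned 217 to 451 TPM and Csf2ra 159.6 to 325 TPM, and in TN2 tag_1341 Csf2ra was the higher. Csf3r spanned 42.9 to 161 TPM and was below Csf2ra except in TN2 tag_706. In each of the 5 neutrophil libraries Csf3r came first, Csf2rb second and Csf2rb2 last. Csf1r and Csf2ra, at 172 ± 23.3 and 170.5 ± 29.0 TPM (SD, n = 5), did not differ beyond their spread there, and Csf1r was the higher in 3 of 5 libraries. Among all 29893 genes by mean TPM, Csf3r ranked 1319th in monocytes and 43rd in neutrophils, and Csf1r 275th in monocytes and 625th in neutrophils.

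Csf3r was the receptor that separated the cell types most. It stood at 71.6 (TN2 tag_367), 161 (TN2 tag_706), 119 (TN2 tag_1341), 71.6 (TN1 tag_191) and 42.9 TPM (TN1 tag_482) in monocytes. In neutrophils it stood at 2427, 2408 and 2547 TPM in the same order of TN2 tags, and at 2796 and 2410.5 TPM in TN1. The neutrophil libraries lay close together and far above all monocyte libraries, whose values spread widely among themselves. The mean was 93.1 ± 46.6 TPM in monocytes and 2518 ± 166 TPM in neutrophils (SD, n = 5 each). The edgeR log2 fold change of monocytes over neutrophils was -5.71 ± 0.33 (SE), with an adjusted p of 2.09e-05, the 7th smallest p of all genes. Csf3r also fell in each of 18 alternative settings, between -6.00 and -4.99.

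Csf3r was nevertheless read in every monocyte library, with 692 to 3624 estimated counts. Its CPM there was 1.70% (TN2 tag_367), 3.15% (TN2 tag_706), 2.58% (TN2 tag_1341), 1.88% (TN1 tag_191) and 1.05% (TN1 tag_482) of the neutrophil mean. The summed neutrophil markers in these libraries were at 0.366%, 2.35%, 1.15%, 0.154% and 0.243% of theirs, in the same order. Csf3r was above the marker sum in all 5 monocyte libraries, by the least in TN2 tag_706. Single neutrophil markers ranged from 0.00619% for Camp, a granule peptide, to 10.5% for Mmp8, a granule collagenase, with a median of 0.663%. Both Csf3r and the markers were highest in TN2 tag_706, and the part of other cells in the monocyte value of Csf3r was not tested.

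**Figure D2:**
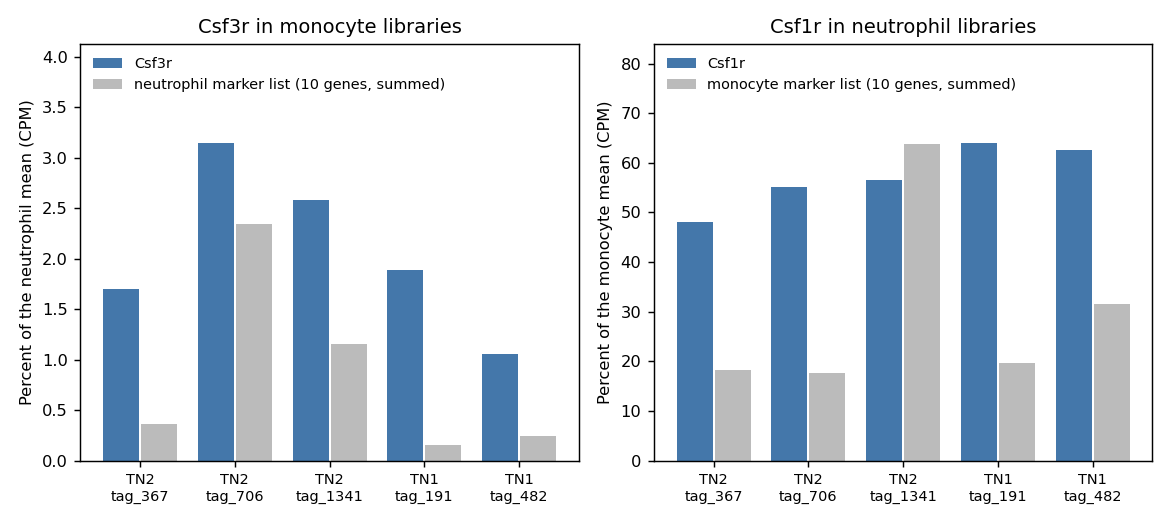
Left, Csf3r CPM in each monocyte library (blue) as a percent of the neutrophil mean, beside the summed CPM of 10 neutrophil markers as a percent of theirs (grey). Right, Csf1r CPM in each neutrophil library as a percent of the monocyte mean, beside the summed CPM of 10 monocyte markers, most of which is Lyz2. The receptor is above the marker sum in 5 of 5 monocyte and 4 of 5 neutrophil libraries.

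All 4 annotated Csf3r transcripts were measured. The coding transcripts Csf3r-201 and Csf3r-202 held most of the signal. The share of Csf3r-201 was 53.5% ± 13.4 of the gene's TPM in monocytes and 53.5% ± 4.55 in neutrophils (SD, n = 5 each; exact permutation test, two-sided, p = 1). Csf3r-203, a processed transcript without an annotated coding sequence, leaves out exon 15 of Csf3r-202, which codes for the membrane-spanning segment. The exon, 91 bases in capitals, is shown with 30 bases of each flank (chr4:126042660-126042750 for the capitals, plus strand), above the join that replaces it.
Csf3r-202: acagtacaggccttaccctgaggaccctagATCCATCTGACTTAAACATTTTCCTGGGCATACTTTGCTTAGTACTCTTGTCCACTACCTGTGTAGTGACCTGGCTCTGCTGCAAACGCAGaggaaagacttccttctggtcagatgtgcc
Csf3r-203: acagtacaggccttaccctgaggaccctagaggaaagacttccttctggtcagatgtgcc
The skipped form was minor in neutrophils, at 26.5 (TN2 tag_367), 34.9 (TN2 tag_706), 9.08 (TN2 tag_1341), 33.9 (TN1 tag_191) and 41.0 TPM (TN1 tag_482), or 0.0971% to 0.465% of the gene's counts. In monocytes it had 7.43 estimated counts in TN2 tag_706 and 0 in the other 4 libraries. A count of 0 there allows a share of up to 0.116% to 0.433% of the gene's counts (3 counts; counting error only). The limits of 3 of these 4 libraries lay below 4 of the 5 neutrophil shares, and above that of neutrophil TN2 tag_1341. The difference between the cell types was not tested.

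Csf1r, on chromosome 18 (GRCm38, 61100598 to 61132149, plus strand), was higher in monocytes but was also read in every neutrophil library. It overlaps Hmgxb3 on the opposite strand, and no source used here states that the counting used strand. Hmgxb3 had at most 229 estimated counts in a library, against 4871 to 19597 for Csf1r. In monocytes it stood at 590.4 (TN2 tag_367), 308 (TN2 tag_706), 548 (TN2 tag_1341), 585 (TN1 tag_191) and 521 TPM (TN1 tag_482). In neutrophils it stood at 168, 156 and 145 TPM in the TN2 tags in that order, and at 200.3 and 192 TPM in TN1. The neutrophil libraries were tightly grouped, and TN2 tag_706 lay well below the other monocyte libraries while still above every neutrophil library. In CPM the same library (649 CPM) fell inside the neutrophil range (633 to 840.3 CPM). The mean was 511 ± 117 TPM in monocytes and 172 ± 23.3 TPM in neutrophils (SD, n = 5 each).

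By edgeR the log2 fold change of Csf1r in monocytes over neutrophils was 0.81 ± 0.24 (SE, adjusted p = 0.0302), against a median of 0.46 over all genes. The direction held in all 18 alternatives (0.66 to 1.53) and the call in 8, with adjusted p from 0.000222 to 0.230. The call was lost in 10 alternatives, including the fit with the tag as a replicate block. Among these were the fits without any single one of 8 libraries, all but neutrophil TN2 tag_1341 and monocyte TN2 tag_706, at adjusted p from 0.0550 to 0.132. Without monocyte TN2 tag_706 the log2 fold change was 0.95 with an adjusted p of 0.00313. By limma-trend on log2(TPM + 1) Csf1r was at 1.53 with an adjusted p of 0.000222. On that scale 4532 of the 13384 genes were called higher in monocytes and 1198 lower, with a median of 0.62. By edgeR 27.9% of the 13384 genes passed the threshold between the cell types, 15.5% higher and 12.4% lower in monocytes. Among the 5 receptors 1 was called higher, Csf1r, and 1 lower, Csf3r. In CPM 16% of genes were higher and 12.5% lower in monocytes without overlap of any libraries, and Csf3r was the 1 receptor without overlap.

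Neutrophils held 57.3% of the monocyte level of Csf1r in CPM and 33.7% in TPM. By library, Csf1r was at 48.2% (TN2 tag_367), 55.2% (TN2 tag_706), 56.6% (TN2 tag_1341), 64.0% (TN1 tag_191) and 62.5% (TN1 tag_482) of the monocyte mean in CPM. The monocyte marker sum was at 18.3%, 17.6%, 63.8%, 19.7% and 31.5% of its own, in that order. Most of that sum was Lyz2, at a mean of 17537 CPM in monocytes and 6162 CPM in neutrophils. The marker sum was thus highest in TN2 tag_1341, where Csf1r was in the middle of the neutrophil libraries. Single monocyte markers in neutrophils ranged from 4.18% for Ccr2 to 35.1% for Lyz2, lysozyme, with a median of 8.25% over 10 genes. The Csf1r-201 transcript held 98.2% ± 1.0 of the gene's TPM in monocytes and 98.5% ± 0.97 in neutrophils (SD, n = 5 each; exact permutation test, two-sided, p = 0.754).

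**Figure D3:**
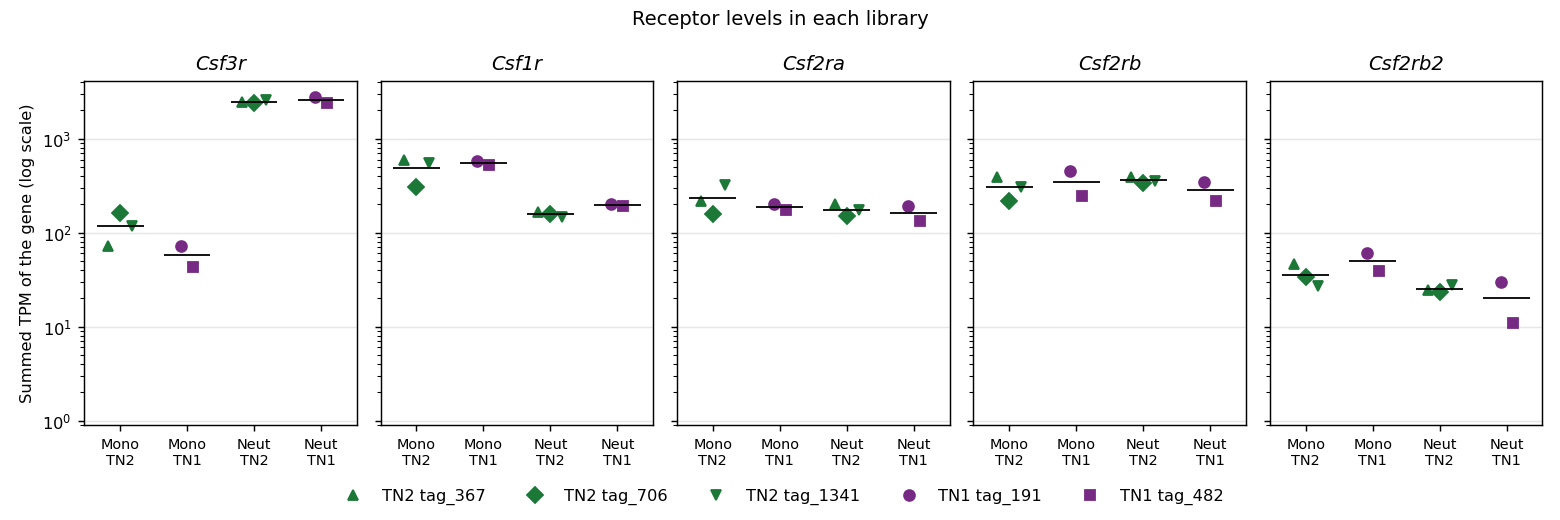
Summed TPM of each receptor gene (vertical log axis) in each library, by cell type and tumour. Points are libraries, with shape by tag, and bars are group means. On this scale Csf3r (higher in neutrophils) and Csf1r (higher in monocytes) are separated by cell type without overlap, and Csf2ra, Csf2rb and Csf2rb2 overlap. In CPM Csf1r overlaps, and the share of all genes separated in TPM was not computed.

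The alpha chain gene and both beta chain genes were read in every library of both cell types. None passed the test between the cell types by edgeR, and their sign or size depended on the scale. The alpha chain gene Csf2ra stood at 219.5 (TN2 tag_367), 159.6 (TN2 tag_706), 325 (TN2 tag_1341), 200.4 (TN1 tag_191) and 176 TPM (TN1 tag_482) in monocytes. In neutrophils it stood at 202.97, 150.1 and 173 TPM in TN2 and at 193 and 133 TPM in TN1. The ranges overlapped, with monocyte TN2 tag_1341 alone above the rest. The log2 fold change was -0.43 ± 0.25 by edgeR (SE, adjusted p = 0.219, 95% interval -0.996 to 0.13), and its sign turned on log2(TPM + 1), at 0.30 ± 0.23 (adjusted p = 0.333).

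The common beta chain gene Csf2rb stood at 388 (TN2 tag_367), 217 (TN2 tag_706), 307 (TN2 tag_1341), 451 (TN1 tag_191) and 242 TPM (TN1 tag_482) in monocytes. In neutrophils it stood at 388, 341 and 355 TPM in TN2 and at 349.6 and 215 TPM in TN1. Library TN1 tag_482 was the lowest neutrophil library, and the cell types overlapped. The mean was 321 ± 98.2 TPM in monocytes and 329.7 ± 66.4 TPM in neutrophils (SD, n = 5 each). By edgeR the log2 fold change was -0.74 ± 0.27 (SE, adjusted p = 0.0630, 95% interval -1.33 to -0.15). It passed with DESeq2 (adjusted p = 0.0244) and with protein-coding transcripts only (adjusted p = 0.0491), and was -0.01 ± 0.25 on log2(TPM + 1) (adjusted p = 0.981).

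The second beta chain gene Csf2rb2 was the least abundant receptor. It stood at 46.2 (TN2 tag_367), 33.5 (TN2 tag_706), 26.8 (TN2 tag_1341), 60.1 (TN1 tag_191) and 39.1 TPM (TN1 tag_482) in monocytes. In neutrophils it stood at 24.5, 23.2 and 27.9 TPM in TN2 and at 29.6 and 11.0 TPM in TN1. All but monocyte TN2 tag_1341 lay above 29.6 TPM among the monocytes, and no neutrophil library did. The log2 fold change was 0.12 ± 0.31 by edgeR (SE, adjusted p = 0.804) and 0.91 ± 0.31 on log2(TPM + 1), where it passed (adjusted p = 0.0372). By limma-trend on that scale 4532 of 13384 genes were called higher in monocytes. The median of all genes there was 0.62, and Csf2rb2 lay 0.29 above it. Without neutrophil TN1 tag_482 the edgeR value turned to -0.14, and without monocyte TN2 tag_367 to -0.09.

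Within a library, free of that scaling, Csf2rb2 made up a larger share of the beta chains in monocytes. Its share of the summed TPM of Csf2rb and Csf2rb2 was 10.6% (TN2 tag_367), 13.4% (TN2 tag_706), 8.03% (TN2 tag_1341), 11.8% (TN1 tag_191) and 13.9% (TN1 tag_482) in monocytes. In neutrophils the share was 5.95%, 6.37% and 7.28% in TN2 and 7.80% and 4.87% in TN1. The cell types did not overlap, although monocyte TN2 tag_1341 came within a percentage point of the highest neutrophil library. The mean was 11.5% ± 2.35 in monocytes and 6.45% ± 1.15 in neutrophils (SD, n = 5 each; exact permutation test, two-sided, p = 0.00794, the smallest 5 against 5 libraries can give). Adjusted over the 4 within-library measures compared, p was 0.0317. If the tags pair the libraries, the exact paired test cannot give a p under 0.0625. Without any single library the difference stayed between 4.50 and 5.96 percentage points. The alpha chain relative to both beta chains did not differ detectably. The log2 ratio of Csf2ra to their sum averaged -0.74 ± 0.48 in monocytes and -1.04 ± 0.19 in neutrophils (SD, n = 5 each; exact permutation test, two-sided, p = 0.246, adjusted p = 0.492). It ranged from -1.35 (TN1 tag_191) to -0.04 (TN2 tag_1341) in monocytes and from -1.28 to -0.76 in neutrophils. Without monocyte TN1 tag_191, the difference was 0.45 with an unadjusted exact p of 0.0476.

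**Figure D4:**
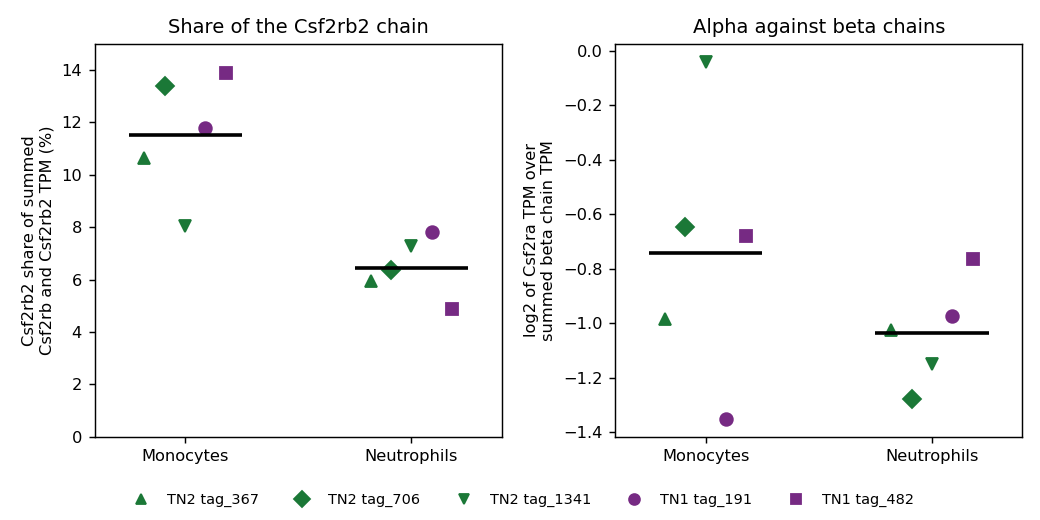
Left, share of Csf2rb2 in the summed TPM of the 2 beta chain genes (percent). Right, log2 of Csf2ra TPM over the summed beta chain TPM. Each point is a library, with shape by tag and colour by tumour, and bars are means. The shares of monocytes (8.03% to 13.9%) lie above those of neutrophils (4.87% to 7.80%), and the ratios overlap.

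Between the tumours, the question was whether the myeloid cells of lungs with the low metastatic tumour differ from those with the highly metastatic one. No receptor passed the threshold in monocytes, in neutrophils or in the difference of these effects. The same held for the whole table, where 0% of genes were called in each of these comparisons by edgeR (379 genes in monocytes, 625 in neutrophils and 472 for the difference had unadjusted p under 0.05). DESeq2 called 22 genes in monocytes, 87 in neutrophils and 21 for the difference, none of them a receptor. With 2 TN1 libraries the intervals were wide.

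In monocytes, Csf3r averaged 117 ± 44.7 TPM in TN2 (SD, n = 3) and 57.2 ± 20.3 TPM in TN1 (SD, n = 2), with a log2 fold change of 0.75 ± 0.38 (SE, adjusted p = 1, 95% interval -0.08 to 1.59). The groups touched, since TN2 tag_367 and TN1 tag_191 were both at 71.6 TPM. The neutrophil markers had the same order of libraries in TN2, at 206 (tag_367), 1318 (tag_706) and 647 CPM (tag_1341), and were at 86.6 and 137 CPM in TN1, and their part in the Csf3r values was not tested. Without TN2 tag_706 the value was 0.55, and over all 18 alternatives it ran from 0.29 without TN1 tag_482 to 1.16 without TN1 tag_191. Csf2rb2 averaged 35.5 ± 9.83 TPM in TN2 (SD, n = 3) and 49.6 ± 14.9 TPM in TN1 (SD, n = 2), with a log2 fold change of -0.80 ± 0.44 (SE, adjusted p = 1). Csf1r was at -0.52 ± 0.33, Csf2rb at -0.48 ± 0.37 and Csf2ra at -0.01 ± 0.35 on the log2 scale (SE, adjusted p = 1 each). Without TN2 tag_706 Csf2ra turned to 0.25.

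In neutrophils, Csf3r was nearly the same under both tumours, at 2461 ± 75.2 TPM in TN2 (SD, n = 3) and 2603 ± 272 TPM in TN1 (SD, n = 2). Its log2 fold change was 0.03 ± 0.37 (SE, adjusted p = 1, 95% interval -0.79 to 0.84), and the sign turned under 12 of 18 alternatives. Csf1r was 156 ± 11.1 TPM in TN2 (SD, n = 3) and 196 ± 6.06 TPM in TN1 (SD, n = 2), with a log2 fold change of -0.25 ± 0.33 (SE, adjusted p = 0.979). Csf2rb was at 0.44 ± 0.38, Csf2rb2 at 0.42 ± 0.45 and Csf2ra at 0.18 ± 0.36 on the log2 scale (SE, adjusted p from 0.946 to 0.991). Without TN1 tag_482, Csf2ra and Csf2rb2 turned to -0.04 and -0.11.

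Csf1r was the 1 receptor whose TN2 libraries lay below both TN1 libraries in both cell types, in CPM. They held 649 to 1429 CPM in TN2 and 1565 to 1641 CPM in TN1 in monocytes, and 633 to 743 CPM in TN2 and 822 to 840.3 CPM in TN1 in neutrophils. Such separation in that direction occurred in 7.77% of all genes in monocytes and 5.97% in neutrophils, each cell type taken alone. The share of genes with it in both cell types was not computed. In TPM the monocyte groups overlapped, since TN2 tag_367 (590.4 TPM) was the highest. Csf2rb2 in monocytes was also without overlap in CPM (75.5 to 134 in TN2, 148 to 193 in TN1) and overlapped in TPM. In the authors' deposited table, all 5 receptors had an adjusted p of 1 in both cell types. The smallest unadjusted p there were 0.0856 for Csf1r in neutrophils (log2 fold change -0.33) and 0.0914 for Csf3r in monocytes (log2 fold change 0.99), on the authors' log2 TPM means.

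The tumour effects of the beta chains had opposite signs in the cell types, save for Csf2rb2 without neutrophil TN1 tag_482, without passing the test of that difference. For Csf2rb2 the effect in monocytes minus that in neutrophils was -1.22 ± 0.63, for Csf2rb -0.92 ± 0.53, for Csf3r 0.73 ± 0.52, for Csf1r -0.27 ± 0.47 and for Csf2ra -0.19 ± 0.50 (log2, SE, edgeR adjusted p = 0.9999 each). On log2(TPM + 1) the differences of Csf1r and Csf2ra turned to 0.07 and 0.14. The median over all genes was 0.22 in each tumour comparison by edgeR, and 0.39 in monocytes and 0.07 in neutrophils on log2(TPM + 1).

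**Figure D5:**
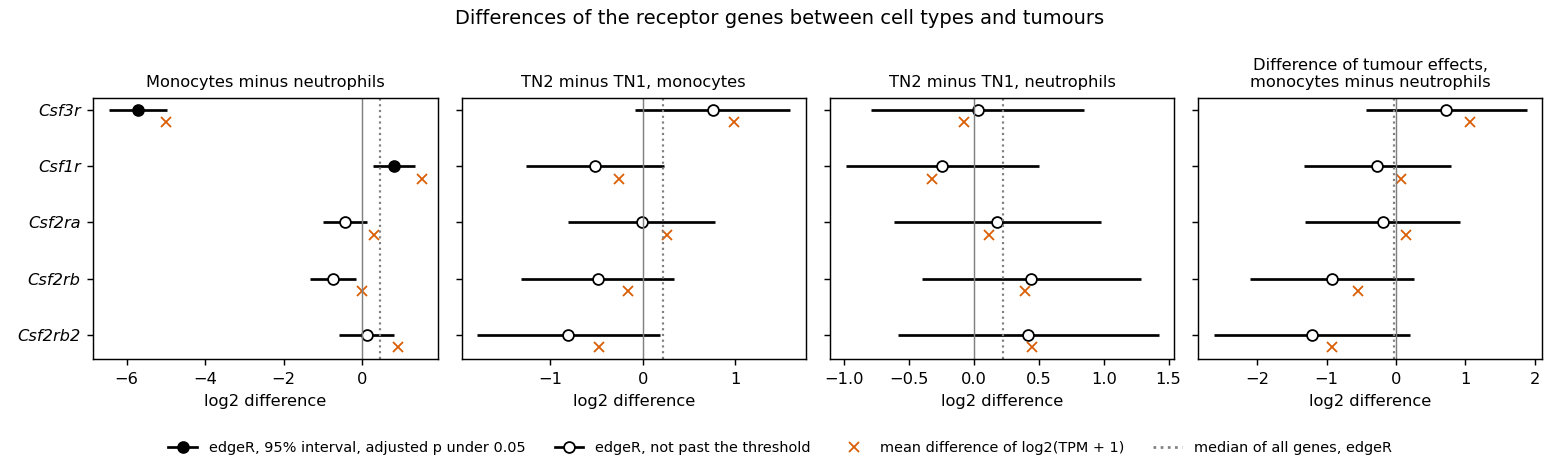
log2 differences of the 5 receptors by edgeR (circles, with 95% intervals, filled where adjusted p is under 0.05) for monocytes minus neutrophils, TN2 minus TN1 in monocytes and in neutrophils, and the difference of these tumour effects. Crosses give the mean difference of log2(TPM + 1), and dotted lines the median of all genes. The 2 filled circles are Csf3r (-5.71) and Csf1r (0.81) between the cell types.

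The other genes of the pathway were taken from 8 lists of ligands, related receptors, signalling proteins, target genes and receptor-cleaving proteases, with 62 of 70 genes tested. The lists were chosen with earlier results of these data known, so their counts describe these genes and test no enrichment. Between the cell types 6 were called higher and 25 lower in monocytes, against 15.5% higher and 12.4% lower of all genes tested. These counts depended on the scale. On log2(TPM + 1) by limma-trend, kinases and adaptors had 1 higher and 6 lower, and target genes 2 and 4. Inhibitors had 2 higher and 1 lower there, and lineage transcription factors 4 and 2. Over all genes 4532 were called higher and 1198 lower on that scale. Between the tumours none passed, as over all genes (0%). Both tested ligand genes of 6 listed were lower in monocytes. Csf3, the ligand of Csf3r, was at 3.87 ± 3.29 CPM in monocytes and 44.2 ± 15.3 CPM in neutrophils (SD, n = 5 each), with a log2 fold change of -3.72 ± 0.83 (SE, adjusted p = 0.00866). Csf1, the ligand of Csf1r, was at 7.37 ± 7.54 CPM in monocytes and 74.0 ± 67.0 CPM in neutrophils (SD, n = 5 each), with a log2 fold change of -2.94 ± 0.73 (SE, adjusted p = 0.0147). Both were called in all 18 alternatives. In CPM the ligand of the neutrophil-rich receptor and that of the monocyte-rich one were thus both higher in neutrophils. Il34 and Il3 had 0 counts in all 10 libraries, and Csf2, the ligand of the Csf2ra receptor, reached at most 75 counts, in monocyte TN2 tag_706.

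Csf1 in neutrophils was at 62.8 (tag_367), 79.2 (tag_706) and 184 CPM (tag_1341) in TN2, and at 33.8 (tag_191) and 10.2 CPM (tag_482) in TN1. The TN2 libraries were all above the TN1 libraries, as in 11.8% of all genes tested in neutrophils. The log2 fold change was 2.31 ± 1.03 (SE, adjusted p = 0.943), which did not pass. Of 3 tested related receptors, 1 was called between the cell types, higher in monocytes, against 15.5% higher and 12.4% lower of all genes. It was Flt3, the receptor of a dendritic cell growth factor, at 34.5 ± 27.6 CPM in monocytes and 1.15 ± 1.53 CPM in neutrophils (SD, n = 5 each; log2 fold change 5.85 ± 1.0 SE, adjusted p = 0.00221). It is also a dendritic cell marker, and that marker list summed to 153 to 1205 CPM in monocytes and 2.44 to 12.03 CPM in neutrophils.

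Of 17 kinases and adaptors, 1 was called higher and 10 lower in monocytes, with a median log2 fold change of -0.94 (15.5% higher and 12.4% lower over all genes, median 0.46). Jak1, a Janus kinase that acts at cytokine receptors, was at -1.76 ± 0.20, Pik3ap1, an adaptor of phosphoinositide kinase, at -2.07 ± 0.25, Syk, a kinase of immune receptors, at -1.58 ± 0.21 and Fgr, a Src family kinase, at -2.08 ± 0.28 (SE, adjusted p from 0.00028 to 0.000635). These 4 passed in all 18 alternatives. On log2(TPM + 1) the list had 6 lower and 1 higher with a median of -0.13, against a median of all genes of 0.62. Of 4 STAT factor genes 1 was called, Stat3, the main transducer of the Csf3r signal, at 408 ± 43.2 CPM in monocytes and 1148 ± 105 CPM in neutrophils (SD, n = 5 each; log2 fold change -1.47 ± 0.18 SE, adjusted p = 0.00039).

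Of 12 inhibitors, 1 was called higher and 3 lower, against 15.5% and 12.4% of all genes. Dok3, an adaptor that restrains myeloid signalling, was at -1.996 ± 0.26, Pias1, an inhibitor of STAT proteins, at -1.54 ± 0.28 and Inpp5d, a lipid phosphatase, at -0.90 ± 0.21. Cblb, a ubiquitin ligase of activated kinases, was at 2.06 ± 0.51 (SE, adjusted p from 0.000532 to 0.0146 over these 4). The call was lost in 4 of 18 alternatives for Inpp5d, in 2 for Cblb and in 1 for Pias1. Of 10 target genes, 1 was called higher and 5 lower, beside the same shares of all genes. Il1rn, the interleukin-1 receptor antagonist, was at -3.09 ± 0.38, Osm, oncostatin M, at -1.74 ± 0.32 and Ccnd3, a D-type cyclin, at -1.55 ± 0.26, while Myc, a growth regulator, was at 5.58 ± 0.93 (SE, adjusted p from 0.000411 to 0.0032 over these 4).

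Of 9 lineage transcription factors tested, 1 was called higher and 3 lower in monocytes, against 15.5% and 12.4% of all genes. Irf8, which directs progenitors to the monocyte line, was at 190.5 ± 56.2 CPM in monocytes and 8.91 ± 5.48 CPM in neutrophils (SD, n = 5 each; log2 fold change 4.68 ± 0.86 SE, adjusted p = 0.00322). Spi1 encodes PU.1, a factor known to bind the promoters of Csf1r, Csf3r and Csf2ra, and was at 53.2 ± 11.4 CPM in monocytes and 250.3 ± 85.9 CPM in neutrophils (SD, n = 5 each; log2 fold change -2.13 ± 0.24 SE, adjusted p = 0.00029). Ets2, an Ets family factor, was at -3.73 ± 0.22 (SE, adjusted p = 2.09e-05) and Cebpb, a factor of granulocyte formation under stress, at -1.26 ± 0.35 (SE, adjusted p = 0.0238), whose call was lost in 7 of 18 alternatives. Of 5 receptor-cleaving proteases and their regulators, Rhbdf2, a partner of the sheddase of Csf1r, was at -1.90 ± 0.26 (SE, adjusted p = 0.000698) and Adam10, a sheddase, at 1.89 ± 0.60 (SE, adjusted p = 0.0418), a call also lost in 7 of 18 alternatives.

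The genes whose pattern over the 10 libraries was most like that of a receptor were found by the root mean square difference of centred log2(CPM + 1). For Csf3r these were Ly6g, a neutrophil surface protein (0.354), Il1rap, an interleukin-1 receptor subunit (0.394), and Pglyrp1, a granule protein (0.412), against a spread of Csf3r itself of 2.86. For Csf1r they were Nono, Psma1 and Camk1d (0.192 to 0.206), and for Csf2rb Golph3, Wipf1 and Vrk3 (0.180 to 0.224). For Csf2ra they were Gm24362, Gsdmd and Cpa6 (0.161 to 0.176), and for Csf2rb2 Gm20449, Ipo7 and Dusp5 (0.249 to 0.302). Gm24362 averaged 0.684 CPM in monocytes and 1.19 CPM in neutrophils, and Gm20449 0.948 CPM in monocytes and 1.02 CPM in neutrophils. Both were thus near the 1 added before the logarithm, which compresses such values. Ly6g averaged 1.12 CPM in monocytes, also near that 1, and 100.8 CPM in neutrophils. Many genes were nearly as close, with 26 for Csf3r and 101 to 270 for the others within 2 times the smallest distance. On TPM, 1 of the 3 genes recurred for each receptor and 2 for Csf2rb. For Csf3r the recurring gene was Il1rap, not Ly6g.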

How the data were processed

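Bulk RNA of 10 sorted samples was amplified with Smart-seq2, which does not tag molecules, so duplicates made in PCR cannot be removed. Transcript abundance came from kallisto 0.42.3 and a GRCm38 transcriptome, per the labels' design text; the annotation release is not given in the sources used here. The deposited tables give an estimated count and TPM per transcript. The authors' comparison tables hold log2 group means, fold changes, scores of fold and p-values. Their group means equalled the mean log2(TPM + 1) of the receptors to within 2.92e-09.

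Transcripts were summed to genes with GENCODE M21 (81839 of 85276 matched; unmatched ones held 1.94% to 3.59% of counts). The files measured 4 of 4 annotated transcripts of Csf3r, 2 of 6 of Csf1r, and 1 each of 8, 8 and 4 of Csf2ra, Csf2rb and Csf2rb2. Counts were rounded and tested with edgeR 4.0.16 in R 4.3.3 (4 groups, filterByExpr, TMM, quasi-likelihood F test, threshold 0.05, 6 residual degrees of freedom, biological coefficient of variation 0.887). The steps were tested on simulated data. Within-library shares used exact permutation tests (SciPy 1.17.1). Alternatives were RLE scaling, no filter, DESeq2 1.42.0, limma-trend 3.58.1, coding transcripts only, summed beta chains, single cell types, a tag block and leaving out libraries. Receptors and lists were chosen with earlier results of these data known. Of each list the text names up to 4 called genes with the smallest p.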

Additional observations from a re-analysis of the deposited data

Results flagged for a closer look

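A library far from the others of its cell type was found in 2 of 28 sets of 5 libraries examined, and chance flags about 1 in 20. Csf1r in monocyte library TN2 tag_706 was at 308 TPM, with a gap to the next library of 0.756 of the whole range. That library also had the lowest monocyte marker sum. Csf2rb in neutrophil library TN1 tag_482 was at 215 TPM, with a gap of 0.726 of the range. That library had the fewest detected genes of the neutrophil libraries.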

How the results depend on the processing

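The fall of Csf3r in monocytes was called in all 18 alternatives, and no receptor was called between the tumours in any. Of the 2 receptors called between the cell types, 1 was left with the tag block, without tag_482 in both cell types, and in the leave-one-out fits 1 to 2. Leave-one-out fits that left a single TN1 library assume that it varies like the other groups. Genes called between the cell types numbered 5730 by limma-trend (4532 higher, 1198 lower), against 3733 (2070 and 1663). Between the tumours, genes called numbered 87 by DESeq2, 2 without a filter, 1 by limma-trend and 0 to 508 leaving out a library (508 without TN1 tag_191) in neutrophils. In monocytes they numbered 22 by DESeq2 and 0 to 129 leaving out a library (129 without TN1 tag_191). For the difference of effects they numbered 21 by DESeq2, 1 without a filter and 0 to 374 leaving out a library (374 without neutrophil and 68 without monocyte TN1 tag_191). The cause was not tested.

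Signs turned for values that had not passed by edgeR. For TN2 minus TN1 in neutrophils, Csf3r was -0.049 with RLE scaling and with DESeq2, -0.10 in the cell type alone, -0.0776 by limma-trend, and -0.10 to 0.15 leaving out libraries. Without tag_482 in both cell types Csf3r was -0.10, Csf2ra -0.0911 and Csf2rb2 -0.16. Leaving out 1 library, Csf2ra ran from -0.0407 to 0.46 and Csf2rb2 from -0.11 to 1.29. In monocytes, Csf2ra was 0.00732 without a filter, 0.26 by limma-trend and -0.41 to 0.25 leaving out a library. For the difference of effects, Csf1r was 0.0745 and Csf2ra 0.14 by limma-trend. Leaving out a library, Csf1r ran from -0.45 to 0.14 and Csf2ra from -0.47 to 0.19. Without tag_482 Csf2ra was 0.0742. Between cell types, Csf2ra was 0.30 by limma-trend, and Csf2rb2 was -0.14 to 0.55 leaving out a library and -0.13 without tag_482. The Csf3r-201 share (monocytes minus neutrophils, percentage points) was -1.94 by counts and -3.97 to 5.07 leaving out a library, and the Csf1r-201 share -0.643 to 0.109. The Csf2ra ratio was 0.12 to 0.45 leaving out a library.

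Same-numbered monocyte and neutrophil libraries correlated at -0.0761 (tag_367), 0.377 (tag_706) and 0.352 (tag_1341) in their deviations from the TN2 group means. Both TN1 tags gave 0.09. That is 1 value, because the deviations of 2 libraries from their mean mirror each other. The TN1 value and that of tag_367 were under 0.1. With so few libraries these correlations cannot show whether the tags pair them, and the main tests did not use the tags. In TN2, tag_706 and tag_1341 correlated best with their own number and tag_367 did not, which is a hint from the data, not the design. With the tag as a replicate block, Csf1r was at 0.78 (adjusted p = 0.0585) between the cell types, and the Csf2rb2 share difference of 5.08 points had an exact p of 0.0625, the smallest that 5 pairs allow. For TN2 against TN1 within a cell type, no paired analysis was possible because the tumours share no tag. Depth limits Csf3r-203 in monocytes, and the limits given for its counts of 0 cover counting error only.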
